A study of Mus musculus with 6 samples.

Results

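The miR-199 and miR-214 strands are 5 mature microRNAs chosen by name, mmu-miR-199a-3p, mmu-miR-199a-5p, mmu-miR-199b-3p, mmu-miR-199b-5p and mmu-miR-214-3p, written below without the species prefix. They were proposed with their difference between the groups already known, so that difference is given below as a description without a test. Of the 5, the table used here has a row for 3, among 1184 miRNAs. miR-199b-3p and miR-214-3p have no row and are not analysed here. Of the 3 listed strands, 2 passed the filter on low values (3 or more libraries at 5 or above), which 387 miRNAs passed.

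MicroRNAs were sequenced from GMLPs, a population sorted from mouse bone marrow and then kept in culture with doxycycline (DOX) for 3 days. For the ME group (n = 3) the mice had the genotype MLL-ENL, an oncogenic fusion found in leukaemia. For the L28BME group (n = 3) the genotype was LIN28B MLL-ENL, so LIN28B, which binds RNA, is active in fetal tissue and blocks the maturation of let-7 microRNAs, was present as well. MLL-ENL and the DOX culture were thus common to every library, and there was no group without the fusion gene. The sources used here do not give strain, age, the promoters of the transgenes or whether libraries came from separate mice or cultures.

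A microRNA hairpin is cut into a 5p and a 3p strand, and usually one of them is kept and guides silencing of mRNAs that match its seed, bases 2 to 8. In the mouse, miR-199a-2 and miR-214 are cut from Dnm3os, a noncoding transcript that runs opposite to the gene Dnm3, and this transcript is known as a product of mesenchymal cells. As background, miR-199a-3p has been reported to repress mTOR in human liver cancer cells, miR-199a-5p to repress Hif1a in rat cardiac myocytes and miR-214-3p to repress Ezh2 in mouse muscle cells. miR-199 strands are also known from blood stem and leukaemic cells.

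The mature sequences are shown first because they set what the reads can tell apart. RefSeq (GRCm38.p6) held 4 of the 5 members, all but miR-199b-5p, and capitals mark the seed:

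miR-199a-3p: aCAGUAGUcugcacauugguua

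miR-199b-3p: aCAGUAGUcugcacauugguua

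miR-199a-5p: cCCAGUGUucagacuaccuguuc

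miR-214-3p: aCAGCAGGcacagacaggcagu

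miR-199a-3p and miR-199b-3p are the same molecule of 22 bases, so the row named miR-199a-3p cannot separate them. Among 1679 mature mouse miRNAs in RefSeq no further one has their seed, CAGUAGU. miR-214-3p has another seed, which differs from that of miR-199a-3p by U5C and U8G (miR-199a-3p's base first, counted from 1 at the 5′ end), and shares it with miR-761, which also has no row in the table.

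The 3p sequence lies in 3 hairpins. They are shown 5′ to 3′ because their loops and flanks differ while the 3p run does not. Capitals mark the mature strands printed above. The miR-199b-5p stretch of Mir199b had no RefSeq entry and is left in small letters:

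Mir199a-1: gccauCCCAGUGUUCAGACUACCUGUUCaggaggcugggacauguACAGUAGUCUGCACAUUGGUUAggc

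Mir199a-2: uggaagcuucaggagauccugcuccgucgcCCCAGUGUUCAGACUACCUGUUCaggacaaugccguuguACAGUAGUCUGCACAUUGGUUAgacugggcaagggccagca

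Mir199b: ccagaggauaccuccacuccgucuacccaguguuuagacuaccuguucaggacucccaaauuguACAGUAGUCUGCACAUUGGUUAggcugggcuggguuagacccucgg

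In GRCm38 Mir199a-1 is at chr9:21496495-21496564 on the minus strand, in an intron of Dnm2 and opposite to it. Mir199a-2 is at chr1:162217814-162217923 on the plus strand, in an exon of Dnm3os and inside an intron of Dnm3 on the other strand. Mir214 follows it, also in an exon of Dnm3os, at chr1:162223368-162223477, with 5444 bases between the hairpins. Mir199b is at chr2:32318460-32318569 on the plus strand, opposite to an intron of Dnm1. Each miR-199 hairpin thus sits antisense in a gene of the dynamin family, which encodes enzymes that pinch off membrane vesicles. The 5p strand is the one that tells Mir199b from the other miR-199 loci, since the miR-199a-5p sequence is in 2 hairpins, Mir199a-1 and Mir199a-2, and not in Mir199b. It cannot tell Mir199a-1 from Mir199a-2.

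Depth was 4778027 to 5528960 reads per ME library and 2745970 to 4332618 per L28BME library, counted as whole reads recovered from the deposited values. Values below are the deposited scaled values, in which 1 read is worth 0.189 to 0.312 depending on the library. These are bulk samples, so fewer cells of a type and less RNA per cell cannot be told apart. The let-7 family made up 26.2% to 27.5% of the reads in ME and 3.23% to 3.32% in L28BME, so any share of all reads is raised there for other miRNAs, and values relative to all reads and to reads outside let-7 are given beside the scaled ones.

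miR-199a-3p was the abundant strand and was higher in L28BME. Its scaled value was 183 in ME library 001, 202 in library 002 and 185 in library 003. In L28BME it was 354 in library 004, 347 in library 005 and 357 in library 006. All L28BME values were above all ME values, and the spread inside each group was small beside the gap. The L28BME mean of 353 ± 5.18 was 1.86 times the ME mean of 190 ± 10.8 (SD, n = 3 per group). These values rest on 780 to 917 reads per ME library and 1143 to 1872 per L28BME library. The ratio of the reads pooled over each group was 1.85, with an exact 95% interval of 1.76 to 1.95 that covers counting error only.

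miR-199b-5p, the strand made from Mir199b alone, was scarcer and was also higher in L28BME. Its scaled value was 7.19 in ME library 001, 7.06 in library 002 and 5.69 in library 003. In L28BME it was 17.2 in library 004, 19.2 in library 005 and 19.1 in library 006. The lowest L28BME value was more than any ME value, and the ME values passed the filter on their own. The means were 6.65 ± 0.829 and 18.5 ± 1.11 (SD, n = 3 per group), a ratio of 2.78. With 24 to 32 reads per ME library and 61 to 91 per L28BME library, the pooled ratio of 2.75 had an exact 95% interval of 2.14 to 3.56 for counting error.

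miR-199a-5p, the strand made from the Mir199a hairpins, was close to the limit of detection and did not share that direction. It had 5, 2 and 1 reads in ME libraries 001, 002 and 003, and 0, 1 and 0 reads in L28BME libraries 004, 005 and 006. The scaled values were 1.16, 0.441 and 0.237 in ME and at most 0.237 in L28BME. With 0 reads, the exact 95% interval reaches up to 0.697 in library 004 and 1.15 in library 006. ME library 001 was the highest, and ME library 003 and L28BME library 005, at 1 read each, were nearly level. Over the groups this was 8 reads against 1, a scaled ratio of ME to L28BME of 7.79 with an exact 95% interval of 1.04 to 346 for counting error. The size of the difference is therefore hardly fixed at this depth.

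**Figure D1:**
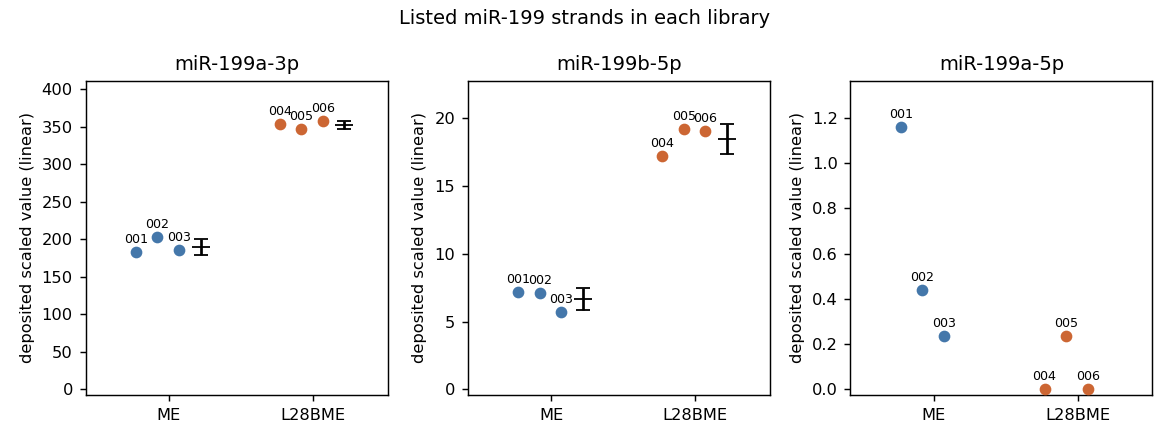
Deposited scaled value (linear axis from 0) of miR-199a-3p, miR-199b-5p and miR-199a-5p in each of 6 libraries, numbered as in the table; black marks are the group mean ± SD (n = 3), left out for miR-199a-5p, which rests on 9 reads. The L28BME points lie above the ME points for miR-199a-3p (353 against 190 on average) and miR-199b-5p (18.5 against 6.65), and miR-199a-5p stays under 1.2.

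In limma's fit of log2(value + 1) over all 387 tested miRNAs, the change from ME to L28BME was 0.89 for miR-199a-3p (SE 0.088) and 1.35 for miR-199b-5p (SE 0.16). Such log2 changes understate the change of scarce miRNAs, since 1 is added to each value. miR-199b-5p had the fifth largest rise on this scale, with 4 tested miRNAs above it, and miR-199a-3p had 16 above it. Both tested strands were higher in L28BME without overlap between the groups, as were 27.9% of all tested miRNAs. By limma 24.0% of all tested miRNAs were called higher at an adjusted p under 0.05. Since the strands were chosen on this contrast, no call is given for them and nothing is read from the lack of overlap. In the authors' deposited table the log2 fold changes were 0.89 for miR-199a-3p, 1.46 for miR-199b-5p and -2.66 for miR-199a-5p.

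**Figure D2:**
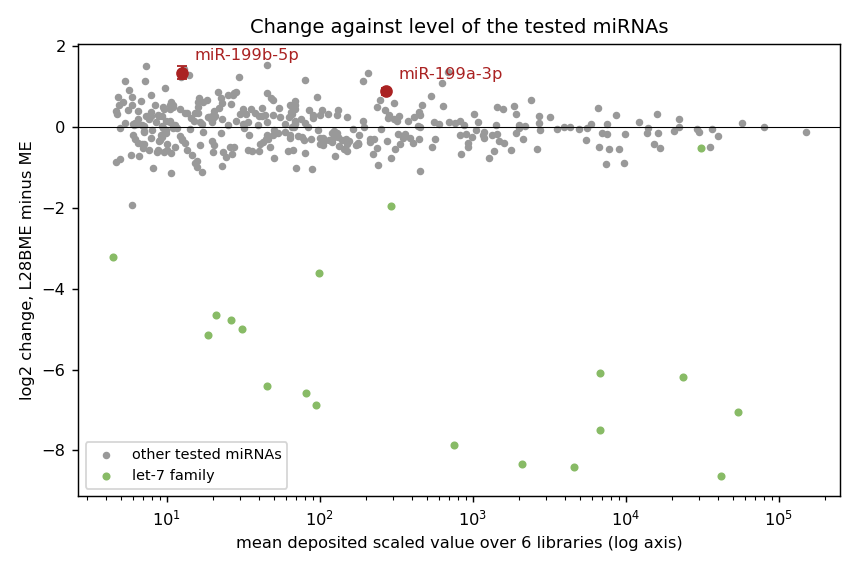
Log2 change from ME to L28BME against the mean deposited scaled value over 6 libraries (log axis) for the 387 tested miRNAs; red points are the tested miR-199 strands with their SE, green points the let-7 family. miR-199b-5p (1.35) and miR-199a-3p (0.89) lie at the upper edge of the cloud. Most let-7 points lie far below it, while let-7c-5p (-0.52) lies within it.

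The size of the difference depended on what the reads were set against. Per 1000000 of all reads miR-199a-3p was at 151 to 166 in the ME libraries and 408 to 432 in the L28BME libraries, and the ratio of means was 2.62. Per 1000000 reads outside let-7 it was 218 ± 12.1 and 433 ± 12.4 (SD, n = 3 per group), a ratio of 1.98. For miR-199b-5p the ratio was 3.93 relative to all reads and 2.98 relative to reads outside let-7. Set against the median change of all tested miRNAs, which was -0.014 with the deposited scaling and 0.46 with plain library size, the log2 change of miR-199a-3p was 0.90 and 0.92, and that of miR-199b-5p was 1.37 and 1.34. The position of these strands within the table thus moved little, while their ratio moved with the scaling.

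The 3p strand dominated the miR-199 reads in every library. It made up 95.6%, 96.4% and 96.9% of miR-199 reads in ME libraries 001, 002 and 003, and 95.4%, 94.7% and 94.9% in L28BME libraries 004, 005 and 006. The exact 95% intervals of these shares ran from 93.5% to 98.0% over the 6 libraries, for counting error only. The log2 ratio of the 3p value to the summed 5p values, with 1 added to each, was 4.36 ± 0.253 (SD, n = 6) and above 0 in 6 of 6 libraries. An exact two-sided sign-flip permutation test over the libraries gave p = 0.03125, the smallest that 6 libraries allow. With every ratio above 0 it could give no other value. It pools both groups and takes the libraries as independent, so it adds nothing to the ratios themselves. By group this log2 ratio was 4.30 to 4.75 in the ME libraries and 4.09 to 4.29 in the L28BME libraries, so the groups almost touched. Without the added 1, the linear ratio was 21.9 to 31.2 in the ME libraries and 17.9 to 20.6 in the L28BME libraries.

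Within the 5p strands miR-199b-5p accounted for nearly all reads. Its share was 86.1% of 36 reads in ME library 001, 94.1% of 34 in library 002 and 96.0% of 25 in library 003. In L28BME it was 100% of 91 reads in library 004, 98.8% of 82 in library 005 and 100% of 61 in library 006. Pooled over the groups this was 91.6% of 95 reads in ME (exact 95% interval 84.1% to 96.3%) and 99.6% of 234 in L28BME (97.6% to 99.99%, counting error only). How the 3p reads divide between Mir199a-1, Mir199a-2 and Mir199b was not measured, because the 3p sequence is common to them. The sources used here do not say how the authors' counting assigned reads that fit several names, and miR-199a-5p and miR-199b-5p are close in sequence, so single 5p reads may have been assigned to either.

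The other strands sought at the Dnm3os locus were miR-214-3p and miR-214-5p, both cut from Mir214, and the 5p and 3p strands of miR-3120. They have no row in the table and are not analysed here. Within 50 kb of the miR-199 hairpins the GENCODE M21 annotation has, beside Mir214, 1 more miRNA gene, Gm23363, which lies 116 bases from Mir199b and has no row under that name.

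The 5p and 3p strands were set beside those of other hairpins with both strands tested, 87 of them outside let-7. The log2 changes of miR-199b-5p and miR-199a-3p differed by 0.46. Over the 87 hairpins the median absolute difference between strands was 0.19, and 78 of them had a smaller one than miR-199. The gap depends on the pseudocount, since with a pseudocount of 5 the changes were 1.01 for miR-199b-5p and 0.88 for miR-199a-3p. The other hairpins were not compared at that pseudocount. Both changes were above 0 in 30 of the 87 hairpins. In 1 hairpin, that of miR-582, both strands changed by at least as much as those of miR-199. The miR-199 strands were chosen on this contrast, so nothing is read from their place among the hairpins. The 3p value of miR-199 was 21.6 times the miR-199b-5p value over the 6 libraries. Across the 87 hairpins the dominant strand was at a median of 10.5 times the other, and 32 had at least as unequal strands as miR-199. A part of miR-199a-3p may come from hairpins other than Mir199b, so this pair is not strictly a pair from 1 hairpin.

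**Figure D3:**
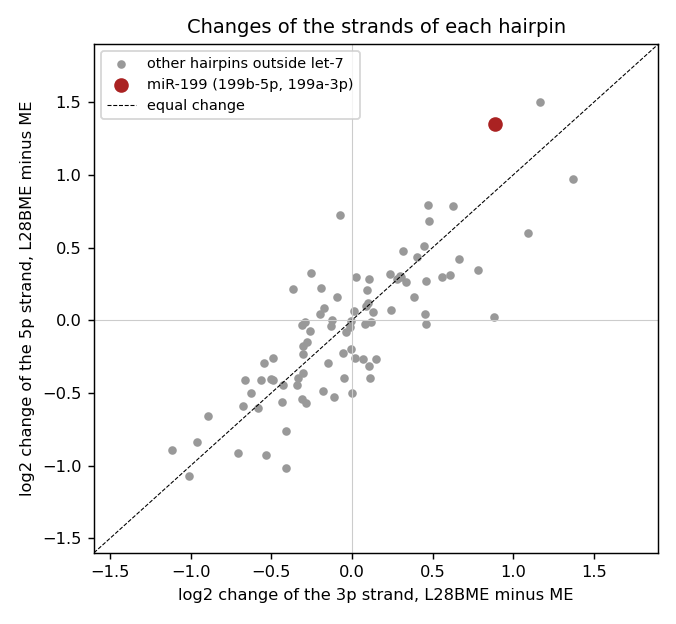
Log2 change from ME to L28BME of the 5p strand against that of the 3p strand, 1 point for each hairpin outside let-7 with both strands tested; red is miR-199b-5p with miR-199a-3p, and the dashed line marks equal change. The miR-199 point (0.89 for 3p, 1.35 for 5p) lies above the line, and the point of miR-582 lies beyond it.

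In the order of levels, miR-199a-3p ranked 135 of 1184 miRNAs in ME and 98 in L28BME. Its ME mean of 190 stood between those of miR-301b-3p (193 ± 24.8) and let-7d-3p (189 ± 20.7, SD, n = 3 per group), and the values of the 3 tested miRNAs next above it and the 3 next below overlapped with its own. In L28BME its neighbours were miR-16-1-3p (361 ± 7.34) above and miR-130b-5p (352 ± 6.81) below, and 5 of its 6 nearest neighbours overlapped with it. The exception was miR-152-3p, at 375 to 419. miR-199b-5p ranked 357 in ME and 266 in L28BME, and miR-199a-5p 672 and 966.

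Likeness over the 6 libraries was measured as the root mean square difference between log2(value + 1) profiles, each centred on its own mean, among 318 other tested miRNAs with a mean of at least 10. Closest to miR-199a-3p were miR-300-3p (0.056), miR-542-3p (0.059), miR-411-5p (0.089), miR-379-5p (0.12) and miR-1949 (0.12). miR-300-3p, miR-411-5p and miR-379-5p are encoded in the imprinted Dlk1-Dio3 region. miR-300-3p went with it from a scaled value of 19.6 ± 1.53 in ME to 34.8 ± 1.31 in L28BME, and miR-542-3p from 392 ± 30.2 to 673 ± 5.10 (SD, n = 3 per group). Closest to miR-199b-5p were miR-130a-3p (0.048), miR-3062-5p (0.10), miR-196a-5p (0.12), miR-136-3p (0.13) and miR-210-3p (0.14). miR-130a-3p, known from blood stem cells, had a mean of 117 ± 18.5 in ME and 297 ± 13.5 in L28BME, and miR-196a-5p, encoded in the Hox loci, had 22.6 ± 3.67 and 67.5 ± 2.76 (SD, n = 3 per group). The profiles are alike mainly in the step between the groups, so miRNAs close to these strands had to be higher in L28BME and no test is given for them.

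Because miR-199 is abundant in mesenchymal cells, markers of the labelled cells and of other cells were set beside it. The haematopoietic miRNAs were at high levels, with miR-142a-3p, a miRNA of all blood lineages, at 55716 ± 3089 in ME and 59415 ± 1081 in L28BME, and miR-223-3p of myeloid cells at 81003 ± 10646 and 80283 ± 6629 (SD, n = 3 per group). The 6 listed members summed to between 161134 and 186451 in the ME libraries and between 167147 and 183680 in the L28BME libraries. By limma 3 of the 6 fell and 3 did not pass, with a median log2 change of -0.10 beside -0.014 for all tested miRNAs, of which 32.0% were called lower. With plain library size the split was the reverse, 4 higher and 1 lower, where 242 of all 387 tested miRNAs were called higher and 33 lower. miR-142a-3p and miR-142a-5p were then at 0.59 and 0.70, beside a median of 0.46 for all tested miRNAs. Both were also called higher with the total without let-7 (0.19 and 0.30, limma adjusted p = 0.013 and 0.00103), as were 128 of the 387. miR-142a-5p alone was called higher by DESeq2 (adjusted p = 0.0107), as were 83 of the 387. It was also called higher without ME library 002 or L28BME library 004 (limma adjusted p = 0.0376 and 0.0323), as were 87 and 83 of the 387. Those that fell were miR-146a-5p (-0.91, adjusted p = 8.61e-08), miR-155-5p (-0.54, adjusted p = 2.46e-05) and, near the threshold, miR-223-5p (-0.20, adjusted p = 0.0458). miR-155-5p lost its call with plain library size (-0.043), and miR-223-5p rose there (0.30). miR-223-5p also lost its call without any 1 of 5 libraries, ME library 003 being the other, and in 5 further alternatives, among them edgeR and DESeq2.

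Of the stromal and mesenchymal list 8 of 9 miRNAs had a row, and miR-143-5p had none. The members of the list under the filter had low values. miR-143-3p had a scaled value of 1.75 ± 0.639 in ME and 2.59 ± 0.623 in L28BME, miR-145a-5p 0.0736 ± 0.127 and 0.287 ± 0.315, and miR-10b-5p 2.90 ± 0.788 and 1.73 ± 0.728 (SD, n = 3 per group). miR-145a-3p was at 0 in all ME libraries. The highest of the members under the filter, miR-218-5p, was at 5.71 ± 2.23 in ME and 3.93 ± 0.969 in L28BME (SD, n = 3 per group). No untested member was above 7.95 in any library. The 2 tested members, miR-152-3p and miR-22-3p, which blood cells express too, fell in L28BME by 0.30 and 0.41 on the log2 scale (limma adjusted p = 0.0153 and 0.00355), a median of -0.35, where 32.0% of all tested miRNAs were called lower. With plain library size they were at 0.20, then a rise, and 0.088, where the median of all tested miRNAs was 0.46. With the deposited scaling miR-152-3p lost its call without ME library 002 or L28BME library 004 (limma adjusted p = 0.0785 and 0.0595). The list summed to between 635 and 738 in the ME libraries and between 535 and 580 in the L28BME libraries, and nearly all of that sum was miR-152-3p and miR-22-3p.

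Among endothelial miRNAs, which blood stem cells express as well, both strands of miR-126a rose, where 24.0% of all tested miRNAs were called higher. The strands come from 1 hairpin and are not independent members. miR-126a-3p had a mean of 5508 ± 438 in ME against 7647 ± 348 in L28BME (SD, n = 3 per group), a log2 change of 0.48 with a limma adjusted p = 0.000232. miR-126a-5p had 1845 ± 242 against 2947 ± 123, a log2 change of 0.68 with a limma adjusted p = 3.76e-05. The list summed to between 6600 and 7903 in the ME libraries and between 10067 and 10961 in the L28BME libraries. The median change of the list was 0.58. The 4 erythroid miRNAs were all under the filter. They summed to between 4.41 and 7.12 in the ME libraries and between 9.68 and 10.8 in the L28BME libraries. miR-144-3p was at 0 in ME and 0.404 ± 0.272 in L28BME, and miR-451a at 0.379 ± 0.341 and 1.41 ± 0.791 (SD, n = 3 per group). miR-144-5p was at 1.53 ± 0.135 and 4.35 ± 0.757, and miR-486a-5p, which overlapped between the groups, at 3.77 ± 1.06 and 4.13 ± 0.379. The 3 muscle miRNAs summed to at most 2.46 in any library, with miR-133a-3p at 0 in all L28BME libraries. The part of stromal, endothelial and erythroid cells in the miR-199 result was not tested.

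**Figure D4:**
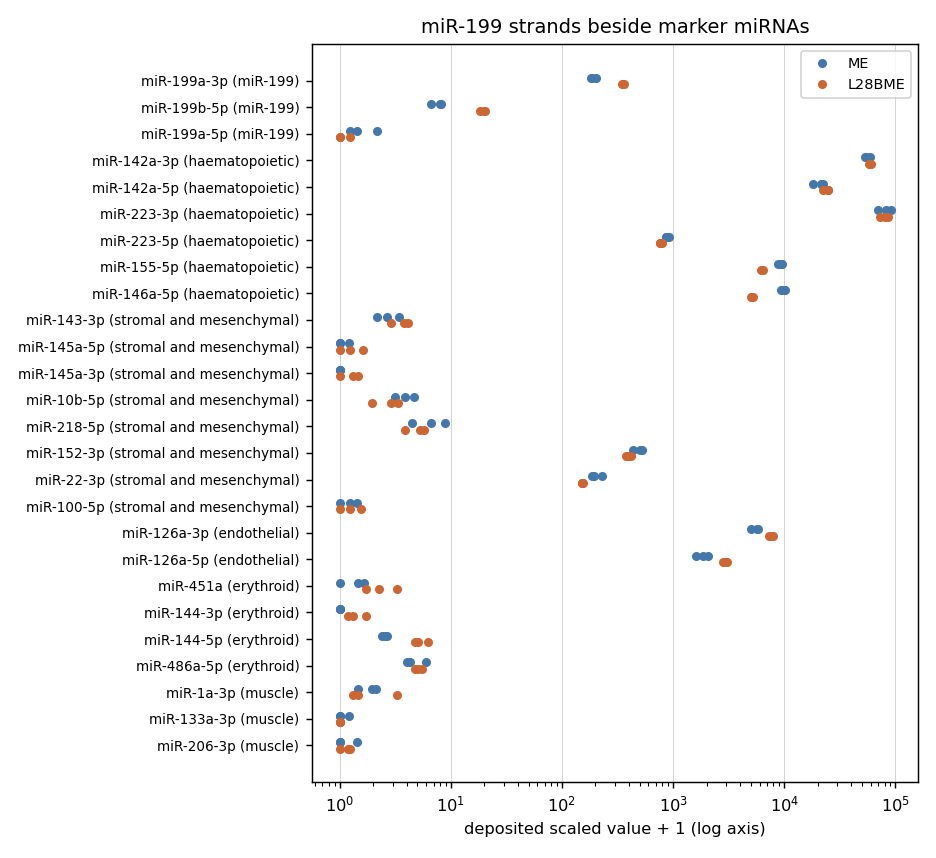
Deposited scaled value + 1 (log axis) in each library for the listed miR-199 strands and the marker miRNAs named in brackets by cell type; blue is ME and orange L28BME, 3 points each. Values of miR-199a-3p are 183 to 357, those of miR-199b-5p 5.69 to 19.2 and those of miR-199a-5p at most 1.16. In the stromal and mesenchymal list the members under the filter are at most 7.95, and miR-152-3p and miR-22-3p are at 151 to 524.

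The log2 changes of the tested miR-199 strands were recomputed under other scalings, filters, pseudocounts and tests and with each library left out. miR-199a-3p stayed between 0.86 and 1.38 and miR-199b-5p between 1.01 and 1.80. The highest values came from plain library size, where the median of all tested miRNAs was also raised, to 0.46, and the lowest value of miR-199b-5p came with a pseudocount of 5.

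**Figure D5:**
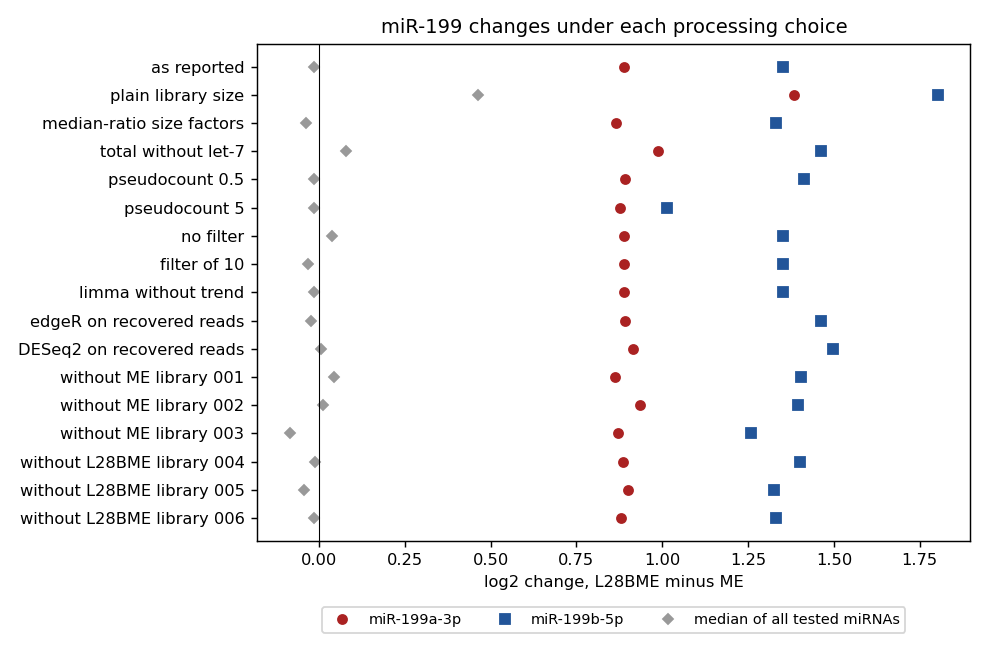
Log2 change from ME to L28BME of miR-199a-3p (circles) and miR-199b-5p (squares) under each processing choice, with the median of all tested miRNAs (diamonds). Both strands stay above 0 and above the median in every setting shown, and plain library size moves all 3 to the right.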

How the data were processed

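Per the labels' protocols, total RNA of 6 libraries was prepared with the QIAseq miRNA kit. The submitters' processing notes name GRCm38 as the genome build. The sources used here do not give the aligner, the counter or the use of molecular identifiers. The deposited table holds 1452 features, of which 1184 are miRNAs and 268 piRNAs. Its library columns hold a scaled signal, named CPM per the file headers, whose sums differ between libraries. In each library all deposited values of this signal (100%) were whole multiples of the lowest value above 0, within 0.001, so whole reads were recovered. The authors' deposited fold changes (a signed score), log2 fold changes and p-values compare L28BME with ME, and the fold change score and p-values were not used. Columns give the group and a library number but no replicate number.

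The members, marker lists and tests were chosen with earlier results of these data known. Tested miRNAs had 3 or more libraries at 5 or above. They were compared by limma's trend test, two-sided, on log2(value + 1), with Benjamini-Hochberg adjustment over 387 miRNAs and a threshold of 0.05. P-values measure the spread between libraries, which may be technical. piRNAs were left out. On recovered reads edgeR's quasi-likelihood test called 210 miRNAs and DESeq2 189, against 217 by limma. Intervals are exact (95%) and cover counting error only. Named miRNAs are the members, the fixed lists, the 5 closest profiles to each tested member and the level neighbours. Level neighbours were planned for ME only, and those in L28BME were added. miR-582 and let-7c-5p were named after their values were seen. The code was tested on simulated data. Versions were limma 3.58.1, edgeR 4.0.16 and DESeq2 1.42.0 under R 4.3.3; figures were drawn with matplotlib 3.10.9.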

Additional observations from a re-analysis of the deposited data

How the results depend on the processing

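The number of called miRNAs stayed within 168 to 275 of the 217 reported, with 168 to 223 when 1 library was left out. The split between directions depended on scaling: 42.9% of calls were higher as reported (93 higher, 124 lower), 57.1% were with the total without let-7 (128 and 96), and plain library size gave 242 higher and 33 lower. Both tested miR-199 strands stayed higher in L28BME in every alternative run. miR-199a-3p moved by more than its SD with plain library size (1.38) and the total without let-7 (0.99), and ranged from 0.86 to 0.94 with 1 library left out. miR-199b-5p moved to 1.80 with plain library size, 1.01 with a pseudocount of 5 and 1.497 with DESeq2, and ranged from 1.26 to 1.41 with 1 library left out. miR-199a-5p rests on 9 reads and was fitted only without a filter. The 3p to 5p log2 ratio ranged from 4.28 to 4.41 with 1 library left out, where 5 libraries allow no exact p under 0.0625. The miR-199b-5p share of 5p reads ranged from 90.0% to 94.9% in ME and from 99.3% to 100% in L28BME. With plain library size 5 haematopoietic miRNAs were called, 4 higher and 1 lower against 3 lower as reported. Of the stromal list 1 was called higher there, where 2 were lower as reported. With 1 library left out the counts of calls were 2 to 3 haematopoietic and 1 to 2 stromal. Without ME library 002 or L28BME library 004, and with DESeq2, the 3 haematopoietic calls were 1 higher (miR-142a-5p) and 2 lower. miR-223-5p lost its call with the total without let-7 (adjusted p = 0.267), no filter (0.0945), limma without trend (0.0829), edgeR (0.0504) and DESeq2 (0.0616). miR-223-3p (-0.0077 as reported) was 0.49 with plain library size, 0.089 with the total without let-7, 0.016 with DESeq2 and -0.11 to 0.081 with 1 library left out. Plain library size reversed miR-223-5p (0.30), miR-152-3p (0.20) and miR-22-3p (0.088). The causes were not tested. No paired analysis was possible because library columns are not numbered by replicate.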
